A study of Homo sapiens with 8 samples.

Results

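Cell adhesion molecules of the L1, contactin, CASPR and NCAM families were followed in FABP7 knockdown and control brain organoids. The group was set as 10 named genes: L1CAM, CHL1, NRCAM and NFASC of the L1 family, the contactins CNTN1, CNTN2 and CNTN4, the CASPR gene CNTNAP2, and NCAM1 and NCAM2. Of these, 9 had a row among the 17504 genes of the deposited table and 8 were among the 13468 genes with counts high enough to test, while CHL1 was not analysed here. The knockdown organoids came from the FKD line, labelled FABP7 knockdown, and the control organoids from the FCT line, labelled WT, and the labels do not give the knockdown method. Both lines derive from IMR90-4, a human induced pluripotent stem cell line, and both were sampled at day 30 in 3 bulk RNA libraries each. The series' design text speaks of adipogenic differentiation, whereas every sample label says brain organoid.

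Each group is 1 cell line, so the knockdown cannot be told apart from anything else in which FKD and FCT differ, and the labels do not say whether a line is 1 clone or whether replicates were separate cultures. P-values thus rest on library-to-library spread, possibly technical. The estimated count totals came to 15063815 to 15360145 in knockdown libraries and 13424959 to 15675888 in control libraries. FABP7, the brain fatty acid binding protein of radial glia, had 14, 15 and 16 counts in the knockdown libraries and 3123, 2650 and 2850 in the control libraries. Its log2 fold change was -7.57 ± 0.09 SE (edgeR adjusted p = 6.04e-26). The correlation of log2 CPM (TMM-scaled counts relative to library size) over genes, which are no independent replicates, was 0.994 to 0.995 for libraries of 1 group and 0.975 to 0.977 for libraries of different groups. The neuronal marker DCX averaged 592 and 580 CPM in knockdown and control, as the brain organoid label would have it. VIM averaged 1021 and 1091 CPM, which by itself does not tell brain organoid from adipogenic cells.

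These molecules carry immunoglobulin-like domains, except CNTNAP2, a member of the neurexin superfamily, and sit on growing axons, where they bind each other, the matrix and receptors of neighbouring cells. L1 family proteins cross the membrane and attach to ankyrin and the spectrin skeleton beneath it, contactins are held by a lipid anchor and need partners such as the CASPR proteins to signal, and NCAM1 carries the sugar polysialic acid. In the developing cortex they serve axon outgrowth, bundling and guidance, and later the axon initial segment and the nodes of Ranvier.

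The adhesion genes were lower in the knockdown organoids, by unequal amounts. The 8 tested genes had log2 fold changes (knockdown minus control) of -1.16 for NCAM2 to -0.23 for CNTNAP2, and each passed the edgeR quasi-likelihood test at an adjusted p under 0.05. Their median was -0.566, beside -0.00523 over all tested genes. Of all tested genes 51.7% passed in either direction and 25.3% passed as lower and 26.4% as higher. In each of the 8 genes the 3 knockdown libraries lay wholly below the 3 controls in CPM, which held for 28.2% of all tested genes, and 57.3% had groups wholly apart either way. NCAM2 and CNTN2 were low, CNTN4 was too low to test, and the others were well expressed, as the plot of CPM by library shows.

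**Figure D1:**
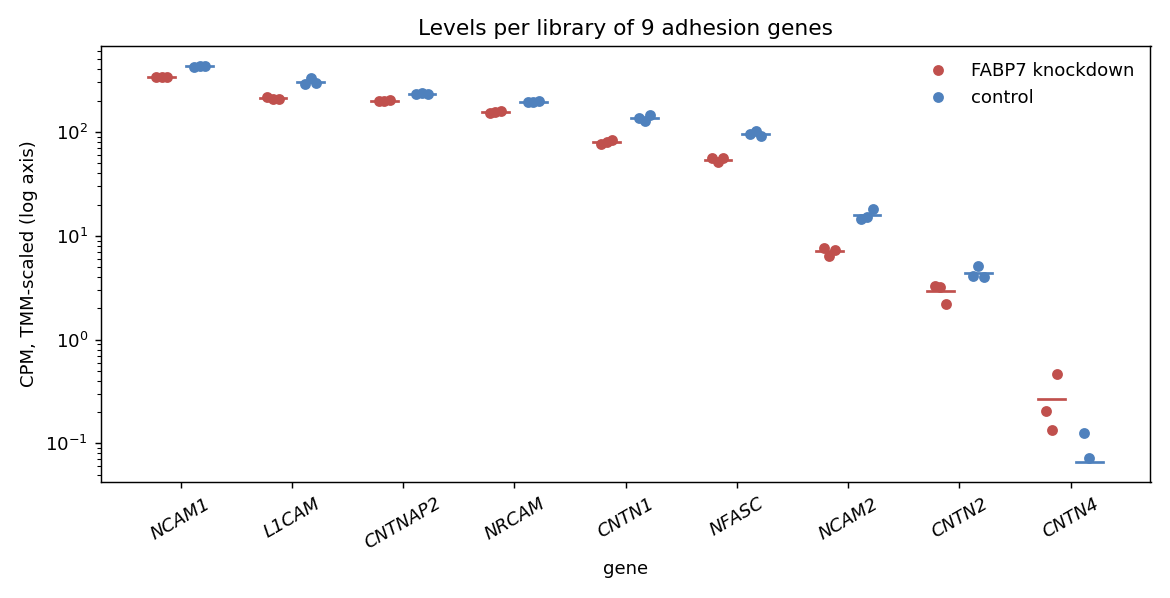
CPM (TMM-scaled, log axis) of the 9 adhesion genes in each library, FABP7 knockdown in red left of control in blue, with points for the 3 libraries and a line for their mean. Knockdown lies below control in all but CNTN4, whose control library of 0 counts has no point on this axis.

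Among the L1 family, NFASC showed the deepest fall. NFASC (NCBI Gene 23114, chromosome 1, 204828652 to 205022822 on GRCh38) encodes neurofascin, which gathers sodium channels at the axon initial segment and the node. It had 817, 758 and 835 counts in knockdown libraries and 1531, 1408 and 1347 in control libraries, that is 55.7, 51.2 and 55.5 CPM in knockdown against 96.1, 102 and 90.9 CPM in control. The groups were well apart, with the lowest control library above 90 CPM and no knockdown library above 56. The log2 fold change was -0.83 with a standard error of 0.05 (edgeR adjusted p = 1.82e-11), and 3.77% of tested genes had a lower one.

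L1CAM (Gene 3897, chromosome X, 153861514 to 153886173), whose product drives neurite outgrowth and bundling and whose mutations cause hydrocephalus and defects of the corpus callosum, came next in this family. Its levels were 215, 205 and 209.9 CPM in knockdown libraries and 289.8, 327 and 293 CPM in control libraries. Control replicate 2 was the highest, and the knockdown libraries stayed within 10 CPM of each other. The log2 fold change was -0.53 ± 0.05 SE (edgeR adjusted p = 1.42e-09).

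NRCAM (Gene 4897, chromosome 7, 108147649 to 108456720), an L1 relative active in axon guidance and at the node, moved less. It measured 152, 156 and 158 CPM in knockdown libraries and 192, 193 and 199 CPM in control libraries. The log2 fold change was -0.33 ± 0.04 SE (edgeR adjusted p = 4.78e-07), and its 95% interval of -0.41 to -0.25 did not meet that of L1CAM, -0.62 to -0.44, or that of NFASC, -0.94 to -0.72.

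Of the contactins, CNTN1 was the abundant one. CNTN1 (Gene 1272, chromosome 12, 40692439 to 41072415) is a lipid-anchored axonal protein that binds the receptor phosphatase PTPRZ1 and, in paranodes, CASPR. Knockdown libraries held 75.7, 79.2 and 83.3 CPM, and control libraries 135, 127 and 146 CPM. All knockdown values lay far under the lowest control, and the log2 fold change was -0.78 ± 0.05 SE (edgeR adjusted p = 3.02e-11).

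CNTN2 (Gene 6900, chromosome 1, 205042949 to 205078289), known as TAG-1 and found on early-growing axons, was scarce. It had 48, 48 and 33 counts in knockdown libraries and 65, 71 and 60 in control libraries. The groups did not overlap, though the highest knockdown library lay at 3.27 CPM and the lowest control library at 4.05 CPM. The log2 fold change of -0.60 had a standard error of 0.18 (edgeR adjusted p = 0.00782), and without knockdown replicate 3, the lowest library, it was -0.43 with an adjusted p of 0.0651 in the same test.

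CNTN4 (Gene 152330, chromosome 3, 2098866 to 3057959), a contactin linked to olfactory axon targeting in mice, was near the limit of detection. It had 3, 2 and 7 counts in knockdown libraries and 2, 1 and 0 in control libraries, where 3 counts in a library correspond to 0.188 to 0.217 CPM. The ratio of summed counts, 12 over 3 after scaling, was 4.01 with a 95% binomial interval of 1.08 to 22.1 that covers counting error only. Tested without the low-count filter, it did not pass (edgeR adjusted p = 0.0906).

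CNTNAP2 (Gene 26047, chromosome 7, 146116801 to 148420998), whose product CASPR2 pairs with contactin-2 and holds Kv1 potassium channels beside the node, changed least of the tested genes. Its levels were 197, 199 and 202 CPM in knockdown libraries and 234, 235 and 232 CPM in control libraries. Replicates were tight in both groups, so the small log2 fold change, -0.23 ± 0.04 SE, passed (edgeR adjusted p = 2.89e-05). At 2304.2 kb CNTNAP2 spans the most genome of these genes, and L1CAM at 24.7 kb the least. RefSeq places antisense genes at L1CAM, NCAM1, CNTNAP2 and CNTN4, and since the use of strand in counting is not given, reads from them cannot be told apart from those of these genes.

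The NCAM paralogs differed most in the depth of their fall. NCAM2 (Gene 4685, chromosome 21, 20998409 to 21543329), known for its place on olfactory axons, had 111, 95 and 109 counts in knockdown libraries and 233, 207 and 266 in control libraries. These are 7.57, 6.42 and 7.25 CPM in knockdown against 14.6, 15.0 and 18.0 CPM in control, with every knockdown library well under the lowest control. The log2 fold change was -1.16 ± 0.11 SE (edgeR adjusted p = 7.80e-09), a ratio of 0.447, and 1.60% of tested genes had a lower one.

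NCAM1 (Gene 4684, chromosome 11, 112961420 to 113278436), the neural cell adhesion molecule and carrier of polysialic acid, was the most abundant of the group. It stood at 338.4, 341.5 and 340.7 CPM in knockdown libraries and 426, 433 and 434 CPM in control libraries. The spread inside each group was small, and the log2 fold change was -0.34 ± 0.04 SE (edgeR adjusted p = 5.90e-08). The log2 ratio of NCAM2 to NCAM1 counts was -5.48, -5.73 and -5.55 in knockdown libraries and -4.86, -4.85 and -4.60 in control libraries, so the pair moved apart (a log2 difference of -0.819) with no overlap between groups.

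Compared by their intervals, NCAM2 (-1.38 to -0.95) lay clear of NCAM1 (-0.41 to -0.27), NRCAM, CNTNAP2 (-0.30 to -0.15), L1CAM and CNTN1 (-0.88 to -0.67), and by a narrow margin of NFASC. NFASC and CNTN1 overlapped each other, and NCAM1 and NRCAM nearly coincided. CNTN2 (-0.96 to -0.25) overlapped every other tested gene. The nearest profiles over the 6 libraries were those of NRCAM and NCAM1, with a Euclidean distance of 0.0508 on centred log2 CPM, and CNTN1 and NFASC were nearest to each other at 0.297. The genes outside the group nearest to its median profile were CADPS, an activator of vesicle release, at 0.0456, YBX1, an RNA-binding protein, at 0.0604 and DENND2A at 0.0617. With 2 groups of libraries such likeness depends mainly on the size of the fold change.

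**Figure D2:**
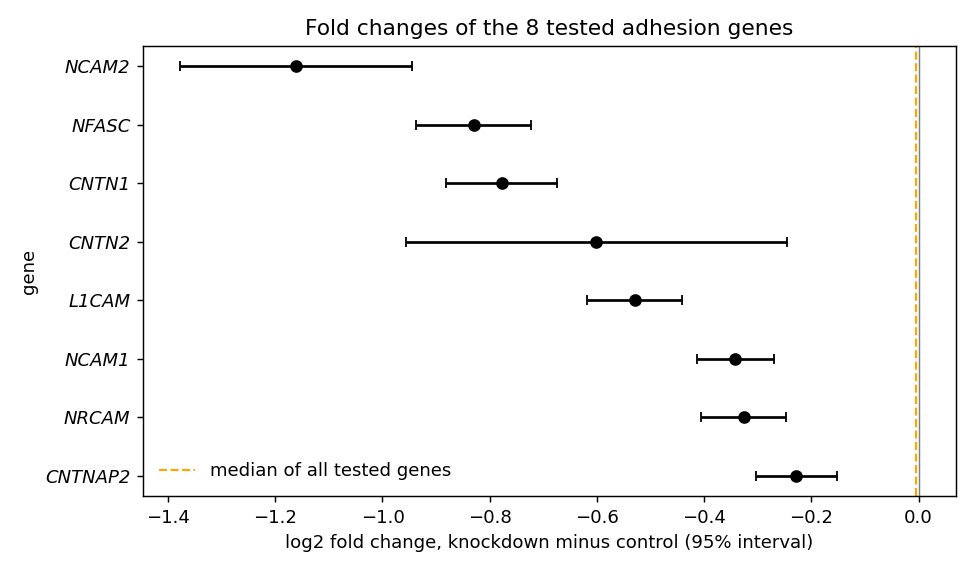
Log2 fold change, knockdown minus control, of the 8 tested adhesion genes with 95% intervals, and the median of all tested genes as a dashed line. NCAM2, NFASC and CNTN1 sit farthest left, and every interval ends below 0.

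Levels can be set between genes only per length, as TPM. In knockdown libraries NCAM1 averaged 82.9 TPM, L1CAM 57.9, CNTNAP2 41.6, NRCAM 34.15, CNTN1 20.1, NFASC 11.7, NCAM2 1.57, CNTN2 0.497 and CNTN4 0.06. In control libraries the order was the same, with NCAM1 at 120.05 TPM, L1CAM at 95.1, CNTNAP2 at 55.2, NRCAM at 48.6, CNTN1 at 39.3, NFASC at 28.15, NCAM2 at 4.21 and CNTN2 at 0.88, while CNTN4 was listed at 0 in every control library. No neighbours in that order overlapped over the 3 libraries of either group. Summed over the 9 genes, TPM was 248, 248 and 255 in knockdown libraries and 386, 396 and 393 in control libraries. Within that sum the share of CNTNAP2 was 16.6 ± 0.118% in knockdown and 14.1 ± 0.224% in control (SD, n = 3 each), and the share of NFASC was 4.66 ± 0.189% in knockdown and 7.19 ± 0.317% in control. On log2(TPM + 1) the median of all genes itself lay at -0.157, so changes on that scale are read against it.

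All 8 tested adhesion genes were lower by more in TPM than in CPM. The gap was widest for NFASC, with a log2 ratio of mean TPM of -1.27 beside -0.83 by edgeR. For L1CAM these were -0.72 and -0.53. The transcript length behind the NFASC values also differed between groups. The deposited count and FPKM together give the transcript length used for a gene in a library, the count divided by FPKM and by the library's summed count. For NFASC this length was 6373, 6093 and 5974 bases in knockdown libraries and 5040, 5340 and 5097 bases in control libraries. The shortest knockdown value exceeded the longest control value, and the difference of the mean log2 lengths was 0.253. Of 12076 genes with at least 20 counts and 0.25 FPKM in every library, 51 (0.422%) had groups apart by as much or more in either direction, and the 5th to 95th percentiles were -0.0672 to 0.0459. Of the 12076 genes 10.4% had groups apart by any amount, beside 1 of the 8 adhesion genes, a count near that share. In the other 7 adhesion genes the groups overlapped, with L1CAM at a mean of 4807 bases in knockdown and 4812 in control and NCAM1 at 5427 in knockdown and 5417 in control. GENCODE v29 lists 14 coding transcripts of NFASC, of 573 to 10333 bases, and neurofascin is known for neuronal and glial isoforms. Which of its transcripts differed was not measured. This measure was chosen after its values were seen. In limma-trend on log2(TPM + 1), NFASC had a log2 fold change of -1.20, or -1.05 against the median of all genes, and NCAM2 had -1.01, or -0.857 against that median. With a pseudocount of 0.1 the order turned, with NFASC at -1.26 and NCAM2 at -1.36.

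**Figure D3:**
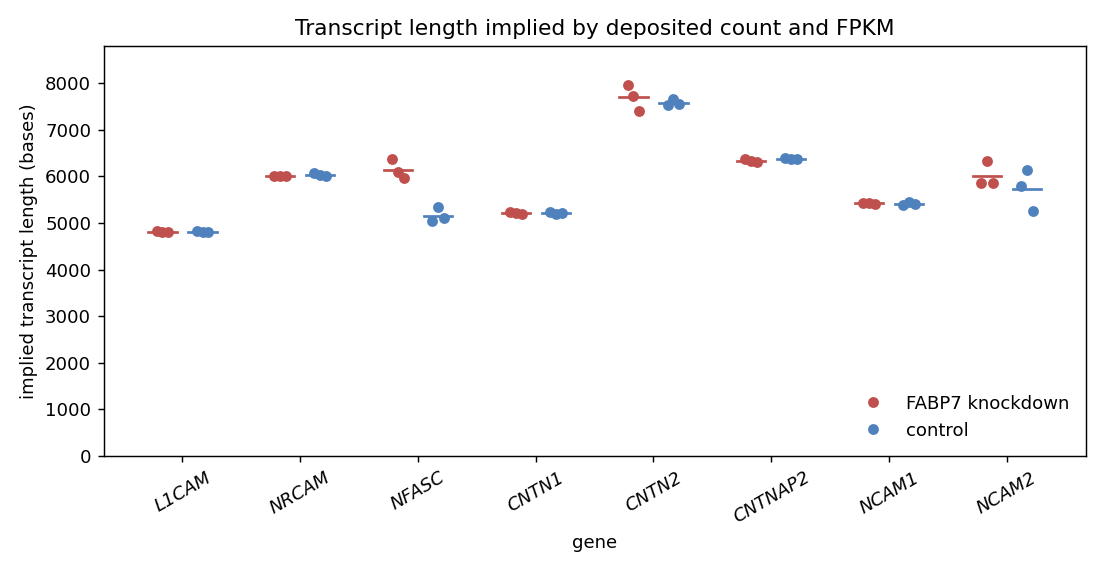
Transcript length in bases implied by the deposited count and FPKM for each library, FABP7 knockdown in red left of control in blue, with the mean as a line. NFASC is the one gene of the 8 whose groups lie apart, as they do in 10.4% of all genes measured, at 5974 to 6373 bases in knockdown and 5040 to 5340 in control.

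NFASC and CNTN2 lie beside each other on chromosome 1, within a stretch where many genes were lower. Of 20 tested genes that start in the 2 Mb on the lower-coordinate side of NFASC, 18 were lower, 1 was higher and the median log2 fold change was -0.656. On the other side, 22 tested genes, CNTN2 among them, had 7 lower, 5 higher and a median of -0.065. The 7 lower genes there all started nearer to NFASC than the 5 higher ones. The farthest lower gene was CDK18, 676 kb from the NFASC start, and the nearest higher gene MFSD4A, at 740 kb. The lower genes thus ran on past NFASC and CNTN2, and the 2 Mb median hides this. The nearest tested neighbours, named after their values were seen, were LRRN2, a leucine-rich repeat protein, at -1.005 and, past CNTN2, TMEM81 at -0.26 and RBBP5 at -0.16. Around the others, within the same 2 Mb on both sides, the median was 0.025 for 60 genes near L1CAM, 0.177 for 15 near NRCAM, -0.071 for 9 near CNTN1 and -0.003 for 23 near NCAM1. NCAM2 had no tested neighbour. The 5 tested genes around CNTN4 had a median of -0.038, with edgeR adjusted p-values of 0.214 to 0.794.

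**Figure D4:**
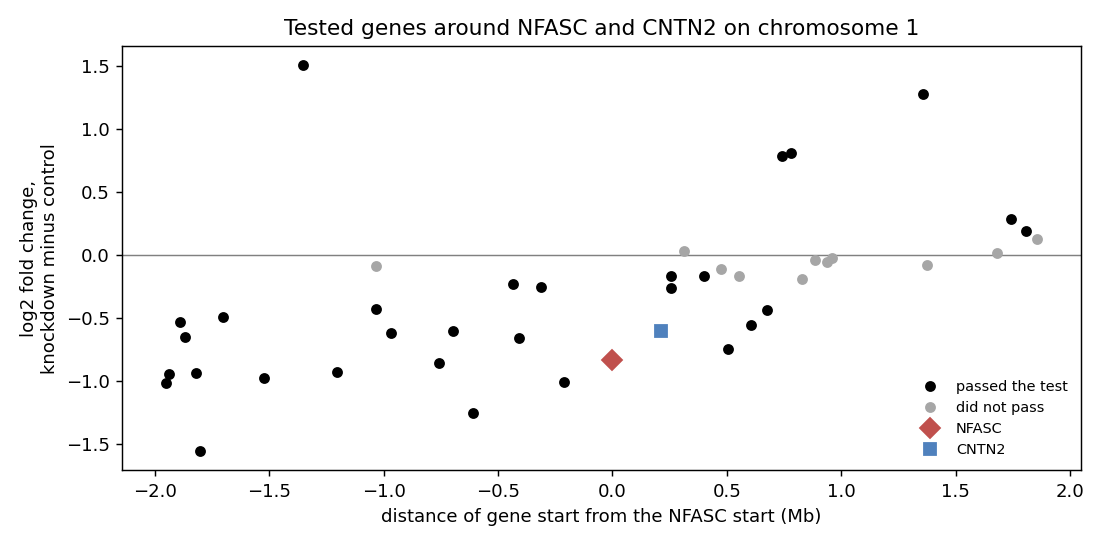
Log2 fold change, knockdown minus control, of tested genes against the distance of their start from the NFASC start in Mb, with genes that passed the test in black. Genes to the left of NFASC have a median of -0.656 and genes to the right a median of -0.065. On the right, the genes that passed as lower all start nearer to NFASC than those that passed as higher.

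The sequences before the start sites are shown for the 2 genes with the deepest falls, NCAM2 and NFASC, for CNTNAP2, with the smallest, and for L1CAM, the only one of the 9 genes searched with either E-box. They are the 250 bases before the RefSeq start on GRCh38.p14, 5′ to 3′ on the gene's strand, and a start was matched for 9 of the 10 genes, all but NCAM1. For L1CAM, NCAM2, CNTN1, CHL1, NRCAM and CNTN2 the start used lies inside the gene's span. Their windows thus lie within that span and not before it, the L1CAM window with both E-boxes among them. On either strand, capitals mark the GC box GGGCGG, the proneural E-box motif CAGATG and a further E-box motif, CAGCTG, and in NCAM2 the stretch ACTCCGGAACT.
NCAM2, chr21:21146912-21147161, plus strand: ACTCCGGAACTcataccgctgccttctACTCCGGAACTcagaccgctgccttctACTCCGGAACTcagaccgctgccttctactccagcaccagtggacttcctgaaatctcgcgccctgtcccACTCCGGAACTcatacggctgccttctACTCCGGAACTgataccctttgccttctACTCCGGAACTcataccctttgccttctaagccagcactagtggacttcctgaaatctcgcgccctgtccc
NFASC, chr1:204828402-204828651, plus strand: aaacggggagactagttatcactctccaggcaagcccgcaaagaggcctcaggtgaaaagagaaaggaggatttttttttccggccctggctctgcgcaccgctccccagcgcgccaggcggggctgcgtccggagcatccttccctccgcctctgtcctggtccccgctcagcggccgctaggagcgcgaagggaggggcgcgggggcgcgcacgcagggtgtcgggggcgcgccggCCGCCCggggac
CNTNAP2, chr7:146116551-146116800, plus strand: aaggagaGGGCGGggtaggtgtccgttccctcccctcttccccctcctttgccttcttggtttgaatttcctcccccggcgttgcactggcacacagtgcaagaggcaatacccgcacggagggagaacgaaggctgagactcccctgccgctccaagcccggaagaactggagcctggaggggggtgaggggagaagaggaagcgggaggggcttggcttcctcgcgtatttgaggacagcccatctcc
L1CAM, chrX:153875945-153876194, minus strand: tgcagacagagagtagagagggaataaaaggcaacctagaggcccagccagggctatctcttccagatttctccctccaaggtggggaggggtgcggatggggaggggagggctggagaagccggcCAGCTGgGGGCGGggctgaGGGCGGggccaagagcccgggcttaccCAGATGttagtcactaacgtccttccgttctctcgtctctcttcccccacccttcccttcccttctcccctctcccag
The NCAM2 window holds 6 copies of ACTCCGGAACT and no GGGCGG. Of 35116 windows of this kind it was the only 1 with more than 1 copy. The stretch was picked as the one with most copies in the NCAM2 window, so its repetition there follows from that choice. Its count in the other windows is a description only. GGGCGG, the GC box, was in 5 of the 9 windows of the group and in 42.6% of all windows. The proneural E-box CAGATG and the E-box CAGCTG were each in 1 of the 9, that of L1CAM, and in 12.2% and 14% of all windows. TATAAA was in none of the 9 (10.7% of all), and the REST element core was in none (0.0456% of all). GC content was 56.4% for NCAM2, 69.6% for NFASC, 62.4% for CNTNAP2 and for L1CAM, with a median of 58.0% over all windows. A match is a description of letters and not of binding.

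Neuronal markers moved with the adhesion genes. Of 12 pan-neuronal genes 11 were lower, none was higher and the median was -0.697. NEFL and NEFM, neurofilament subunits, had -1.41 and -1.34, SYT1, a calcium sensor of vesicle release, -1.18 and SNAP25, a fusion protein, -1.04. The 12 summed to 3908 to 3973 CPM in knockdown libraries and 5209 to 5318 CPM in control libraries, and DCX alone did not pass (0.03, edgeR adjusted p = 0.537), whereas on log2(TPM + 1) 12 passed as lower. In bulk libraries fewer cells of a type and less RNA per cell cannot be told apart. Divided by the summed counts of these 12 markers, NCAM1 (log2 difference 0.08), NRCAM (0.09) and CNTNAP2 (0.19) were above control in every knockdown library. NFASC (-0.41), CNTN1 (-0.355) and NCAM2 (-0.74) were below it, and L1CAM (-0.11) and CNTN2 (-0.20) overlapped. These ratios depend on which markers are summed and were chosen after values were seen. The share of all genes with groups apart on this ratio was not measured, and in CPM it was 57.3%. The separation of groups is thus not read as a result about the adhesion genes.

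Radial glial and cycling markers went both ways, 5 of 10 higher and 4 lower with a median of 0.29. TOP2A and CDK1, genes of dividing cells, had 1.14 and 1.2, MKI67 0.69 and SOX2, a progenitor factor, 0.58, against -0.39 for SLC1A3, -0.25 for PAX6 and -0.10 for each of NES and VIM. The calls of the last pair were the weakest (edgeR adjusted p = 0.0426 and 0.0484), and 2 rather than 4 of the list passed as lower without the low-count filter, without any 1 of the knockdown libraries and without control replicate 1. Of 10 oligodendrocyte lineage and Schwann cell markers 6 were tested, 1 was higher and 3 were lower, with a median of -0.31. SOX10, a lineage factor, was lower at 0.450 and 1.79 CPM in knockdown and control, and the myelin gene MBP was lower (-0.39, edgeR adjusted p = 0.0386). Between 0 and 2 of the list, rather than 3, passed as lower in the DESeq2 Wald test, on either TPM scale, without the low-count filter, with at least 10 CPM and without any 1 library. MOG had 3 and 4 counts over the knockdown and control libraries and FOXD3 had 3 and 7. Of 10 mesenchymal, endothelial, microglial and choroid markers 3 were tested and 2 were higher, LUM at 6.81 and 0.484 CPM in knockdown and control and AIF1 at 10.5 and 2.93 CPM, for a median of 1.83. Their sum was 20.2 to 20.5 CPM in knockdown and 5.40 to 6.65 CPM in control, PECAM1 and CDH5 had 0 counts in knockdown, DCN and PTPRC had 0 in control, and TTR had 1 and 2 in knockdown and control. LUM passed the low-count filter through its knockdown libraries only and SOX10 through its control libraries only, so neither call is support. The same holds for the medians of their lists, which include them. The part of any of these cell types in the adhesion genes was not tested.

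Relatives outside the group were lower in part. Among other contactins and CASPR genes, 7 were tested, 4 were lower and none was higher, and the median was -0.949. CNTN3 had 1.30 ± 0.178 CPM in knockdown and 5.21 ± 0.580 CPM in control (SD, n = 3 each), and its log2 fold change was -1.99. CNTN5 had -1.82 at 0.337 and 1.22 CPM in knockdown and control, CNTNAP5 -1.35 at 9.24 and 23.6 CPM, and CNTNAP4 -0.95 at 1.10 and 2.14 CPM. CNTN5 passed the low-count filter through its control libraries only, so its call, though counted in the list, is no support. The list median includes CNTN5 and depends on it. CNTNAP1, the paranodal CASPR partner of CNTN1, stood at -0.08 (edgeR adjusted p = 0.353), at 23.4 and 24.8 CPM in knockdown and control. CNTNAP3 (-0.11) and CNTNAP3B (0.19) did not pass either, and as near-identical copies their counts are uncertain. CNTN6 was not analysed here.

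Among 22 tested ligands and receptors of these molecules 12 were lower and 3 higher, with a median of -0.17. NRP2, a semaphorin co-receptor that works with L1 family members, fell to 42.1 CPM in knockdown, against 84.3 CPM in control. TNC and TNR, the tenascins that contactins bind, had -1.06 and -2.20, TNR at 0.786 and 3.64 CPM in knockdown and control. RET and GFRA1, receptor parts of the GDNF system for which NCAM is an alternative co-receptor, had -0.88 and -1.35, and APP, a contactin ligand, -0.23. The 3 that rose were ITGB1 (0.43) and ITGAV (0.32), integrins that bind L1, and PTPRZ1 (0.12), the phosphatase that binds CNTN1. On log2(TPM + 1) only 1 of the list was higher. FGFR1, a receptor engaged by NCAM and L1, had -0.02 (edgeR adjusted p = 0.773).

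The membrane skeleton that anchors the L1 family was lower in part. Of 20 tested ankyrin, spectrin and initial segment genes 11 were lower and 2 higher, with a median of -0.275. SPTAN1, alpha-II spectrin, had -0.49, ANK2 and ANK3, the ankyrins of axon and initial segment, -0.31 and -0.38, SCN3B, a sodium channel beta subunit, -0.37 and SCN2A -0.46. KCNA1 and KCNA2, the Kv1 subunits that CASPR2 holds in place, rose by contrast, KCNA1 to 13.9 ± 1.23 CPM in knockdown against 5.89 ± 0.355 CPM in control (SD, n = 3 each; 1.25) and KCNA2 to 16.3 CPM in knockdown against 13.3 CPM in control (0.30). On log2(TPM + 1) 1 of the list passed as higher.

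Genes of signalling and actin linkage split, 9 of 21 lower and 6 higher, with a median of -0.06. SHTN1, shootin, which couples L1 to actin flow in growth cones, had 55.3 CPM in knockdown and 96.3 CPM in control (-0.80), and FYN, a kinase downstream of NCAM and contactins, had -0.38 and GAP43, a growth cone protein, -0.34. EZR and MSN, membrane to actin linkers, had 0.72 and 0.42, and KIF4A, a kinesin of dividing cells that has been linked to L1 transport, 0.76. On log2(TPM + 1) 14 were lower. Enzymes that sugar these proteins were 5 lower and 3 higher of 10, with a median of -0.157. The polysialic acid synthases of NCAM, ST8SIA2 and ST8SIA4, had -0.30 and -0.53, ST8SIA3 -0.88 and B3GAT1, which makes the HNK-1 epitope, -0.48, while NANS (0.45), B3GAT2 (0.36) and SLC35A1 (0.20) were higher, of which 1 was higher on log2(TPM + 1). Among 8 sheddases and secretases, which cut L1 and CHL1 from the membrane, BACE1 was lower (-0.22) and NCSTN (0.145) and ADAM17 (0.12) were higher. The median was 0.03, and neither rise was called in the DESeq2 Wald test, under upper-quartile factors or library totals, on either log2(TPM) scale or without knockdown replicate 2.

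**Figure D5:**
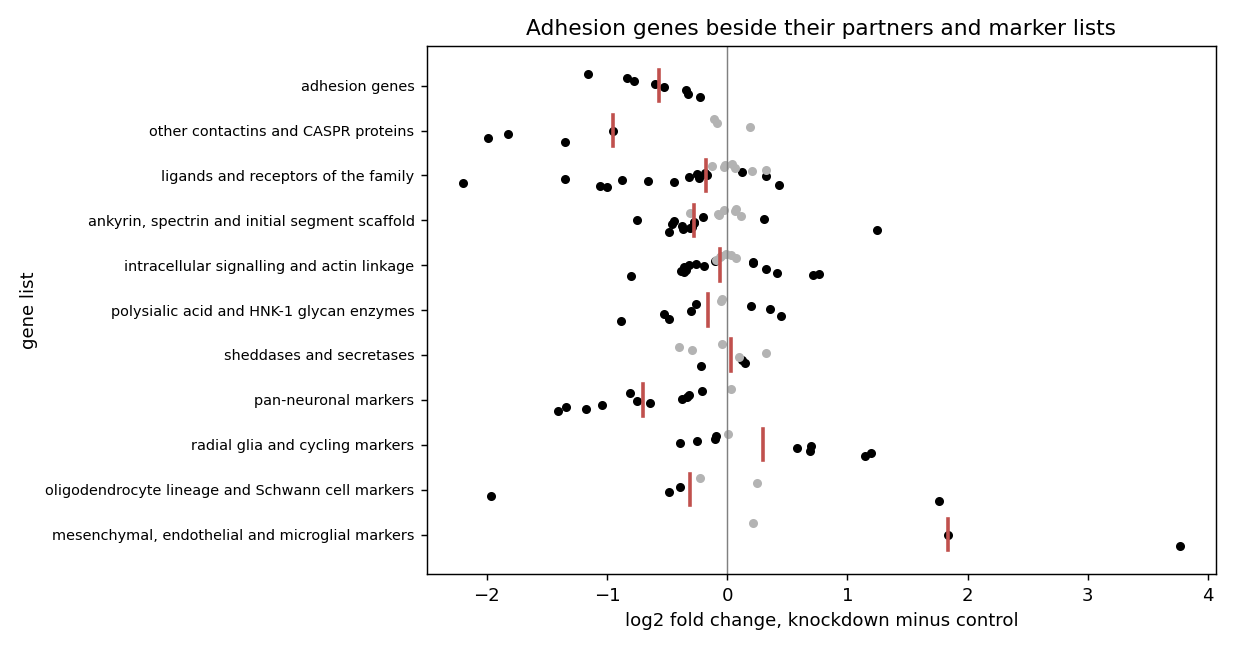
Log2 fold changes, knockdown minus control, of tested genes in each list, black where the test was passed and grey where it was not, with the list median as a red bar. List medians were -0.566 for the adhesion genes, -0.697 for the pan-neuronal markers and -0.31 for the oligodendrocyte lineage and Schwann cell markers. They were -0.275 for the ankyrin and spectrin genes and -0.949 for other contactins and CASPR genes. CNTN5, SOX10 and LUM passed the low-count filter through 1 group only, and the medians of their lists include them. The order of the lists is therefore no support.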

How the data were processed

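Bulk RNA was measured in 3 FABP7 knockdown and 3 control libraries, and the 2 single-cell samples of the labels were not analysed here. Per the file headers, each library had FPKM, TPM, an expected count and a normalized count signal for every gene. The submitters' processing notes name hg38. The authors' normalized signal and group averages entered no test. The aligner, the counter, the annotation and the use of strand: not given in the sources used here. Of the deposited expected counts 12.6 to 14.9% per library were not whole, and they were rounded. Columns of per-sample values without a sample numbered 0.

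The main test was run with edgeR 4.0.16 under R 4.3.3 (TMM, filterByExpr with a minimum count of 10 and total of 15, robust quasi-likelihood F-test, Benjamini-Hochberg adjustment over all genes, threshold 0.05) on all 6 libraries without covariates. Standard errors belong to the log2 fold change. On simulated counts with known changes over 13468 genes the test found 35.8% of 1.2-fold, 80.6% of 1.5-fold and 97% of 2-fold changes, and 10 of 152 calls were false. The simulation changed 67, 67 and 66 genes at these folds, whereas 51.7% of genes passed in the data. Its rates may therefore not carry over to these data. Positions and starts come from RefSeq on GRCh38.p14. Alternatives used DESeq2 1.42.0, limma 3.58.1, other scalings and filters, log2(TPM) with a pseudocount of 1 or 0.1 (genes reaching 1 TPM in 3 libraries), a replicate block, and leaving out each library.

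The adhesion genes and all lists were chosen with earlier results of these data known. Beside the adhesion genes and FABP7, names were given to up to 4 genes of each list by smallest p, to up to 3 called against the list's main direction, and to the 3 genes of nearest profile. Results for some genes are not reported here. Others, among them DCX, VIM, SCN2A, CNTNAP1, FGFR1, RET, GFRA1, APP, LRRN2, TMEM81, RBBP5, CDK18, MFSD4A and the low markers, were chosen after their values were seen. So were the transcript lengths, the split of neighbours by side and distance, and the ratios to neuronal markers.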

Additional observations from a re-analysis of the deposited data

How the results depend on the processing

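The 8 tested adhesion genes passed as lower under each scaling, in the DESeq2 Wald test and in limma-voom, and 7 of them on either TPM scale, where CNTN2 was filtered out. With at least 10 CPM in 3 libraries 7 passed, but NCAM2 reached that level in control libraries only, so its entry there is no support. Without 1 library at a time, 7 to 8 passed. The exception was CNTN2 without FABP7 knockdown replicate 3 (log2 fold change -0.432, edgeR adjusted p = 0.0651). Over all alternatives NCAM2 ranged over -1.36 to -1.01, NFASC over -1.26 to -0.79, CNTN1 over -0.962 to -0.723, L1CAM over -0.715 to -0.478, NCAM1 over -0.533 to -0.332, NRCAM over -0.509 to -0.308 and CNTNAP2 over -0.408 to -0.218, the lowest value of each on log2(TPM + 0.1). Over all genes, 5694 were lower and 1475 higher on log2(TPM + 1), and 5680 lower and 1469 higher on log2(TPM + 0.1), against 3409 lower and 3557 higher by edgeR, and the share of higher calls was 20.6%, 20.5% and 51.1%. Under library totals that share was 37.7%, with a median of all genes of -0.0739. The median of all genes lay at -0.157 and -0.173 on those TPM scales. The cause was not tested. With the replicate number as a block, 7114 genes and the same number of adhesion genes, 8, passed. Same-numbered libraries deviated together at correlations of 0.0698, 0.0653 and 0.0393, and differently numbered ones at -0.121 to 0.0566. Knockdown replicates 1 and 2 correlated best with their own number, and knockdown replicate 3 with another. With 3 libraries per group, values this small cannot settle whether the numbers pair the samples. Of 320 recomputed list counts 289 stayed within 1.5 times. Low counts limit CNTN2 and CNTN4.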
